A study of Mus musculus with 11 samples.

Results

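Foxa1, Foxa2, Gata3, Elf3, Elf5, Ehf, Esr1, Tfap2c and Sox9, 9 transcription factor genes of epithelial cell identity, were followed across 3 mouse cell lines to see which of them a mammary epithelial line keeps and which it lacks. They are 9 of 23355 gene symbols in the tables, picked by a rule that uses their names alone. The study sequenced total RNA of NMuMG (strain NAMRU), E14 embryonic stem (ES) cells (strain 129/Ola) and NIH3T3 (strain NIH/Swiss), lines that carry no knockout or treatment in the labels. NMuMG is an epithelial line from mouse mammary gland, E14 is a pluripotent line kept undifferentiated by leukemia inhibitory factor, and NIH3T3 cells are embryonic mouse fibroblasts. Some cultures carried a BRE reporter transgene, read by its name as a reporter behind a BMP response element, and the others carried no transgene (parental). NMuMG had 4 replicates, of which 2 and 4 were reporter cultures and 1 and 3 were parental. ES cells had 3 replicates, of which 2 and 3 were reporter cultures and 1 was parental, and replicate 2 is the mean of 2 technical runs. NIH3T3 had 3 replicates, of which 1 was parental. For replicates 2 and 3 the tables name the line without showing which sample they hold, and they entered no reporter comparison. The labels give the 2 remaining NIH3T3 samples as reporter cultures, while the names of these tables lack the reporter mark. Whether a reporter line is 1 clone is not given in the sources used here. The titles number biological replicates without saying which step was repeated, so each p-value below measures the spread between these samples only.

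FOXA1 and FOXA2 are forkhead pioneer factors that open closed chromatin. In mammary luminal cells FOXA1 prepares sites for the oestrogen receptor, encoded by Esr1, while FOXA2 is best known from endoderm such as liver and gut. GATA3 specifies and maintains the luminal lineage, and TFAP2C (AP-2 gamma) acts in luminal cells and also in trophoblast and germ cells. ELF3, ELF5 and EHF form the epithelium-specific branch of the ETS family, and ELF5 drives the milk-producing alveolar fate. SOX9 marks progenitor cells of many epithelia, the mammary gland included, and is the master factor of cartilage.

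On build mm10 the genes lie at chr12:57540632-57546121 (Foxa1), chr2:148042878-148046969 (Foxa2), chr2:9857078-9878600 (Gata3), chr1:135253574-135258472 (Elf3), chr2:103412098-103450988 (Elf5), chr2:103263433-103303196 (Ehf), chr10:4612046-5003761 (Esr1), chr2:172549593-172558621 (Tfap2c) and chr11:112782210-112787757 (Sox9). Chromosome 2 holds 5 of the 9. By the deposited coordinates 0 other entries overlap any of the 9 loci, so no overlapping entry could take their reads.

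RefSeq promoter sequence (GRCm38.p6, the 250 bases before the annotated start) was matched for 6 of the 9. The 5 printed here are those of 3 genes with transcript in NMuMG (Foxa1, Foxa2, Elf3) and of 2 luminal regulators with little or none (Gata3, Elf5). They lie at chr12:57546112-57546361, chr2:148046970-148047219, chr1:135258473-135258722 and chr2:9878601-9878850 on the minus strand and at chr2:103411848-103412097 on the plus strand. The Foxa1 window begins 10 bases inside the locus given in the tables, and the others end at its edge. Capitals mark matches to CCAAT or to the forkhead letters TGTTTNC, on either strand.
Foxa1: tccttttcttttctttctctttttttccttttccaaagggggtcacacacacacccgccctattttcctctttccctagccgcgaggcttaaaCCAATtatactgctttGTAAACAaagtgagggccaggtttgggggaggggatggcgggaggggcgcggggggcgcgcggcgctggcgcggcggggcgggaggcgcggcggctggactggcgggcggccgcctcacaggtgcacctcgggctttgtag
Foxa2: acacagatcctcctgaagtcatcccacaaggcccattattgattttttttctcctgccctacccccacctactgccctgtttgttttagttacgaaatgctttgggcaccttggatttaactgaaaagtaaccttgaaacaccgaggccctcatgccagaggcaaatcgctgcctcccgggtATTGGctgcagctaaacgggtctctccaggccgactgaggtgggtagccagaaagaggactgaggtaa
Elf3: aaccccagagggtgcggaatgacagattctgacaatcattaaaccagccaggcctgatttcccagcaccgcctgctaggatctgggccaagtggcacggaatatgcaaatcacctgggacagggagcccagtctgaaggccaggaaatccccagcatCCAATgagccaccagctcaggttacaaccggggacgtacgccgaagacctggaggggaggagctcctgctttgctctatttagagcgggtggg
Gata3: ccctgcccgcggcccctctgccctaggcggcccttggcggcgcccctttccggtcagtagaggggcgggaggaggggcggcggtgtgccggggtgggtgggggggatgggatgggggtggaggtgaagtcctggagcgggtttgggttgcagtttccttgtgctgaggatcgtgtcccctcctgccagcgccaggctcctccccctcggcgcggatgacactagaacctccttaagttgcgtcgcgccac
Elf5: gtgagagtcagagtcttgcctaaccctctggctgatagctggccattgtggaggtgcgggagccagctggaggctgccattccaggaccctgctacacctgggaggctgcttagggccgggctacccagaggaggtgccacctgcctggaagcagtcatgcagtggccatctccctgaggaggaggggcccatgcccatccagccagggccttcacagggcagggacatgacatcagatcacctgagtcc

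A CCAAT match begins 157 bases before the start in Foxa1, 68 in Foxa2 and 93 in Elf3, and the window of Esr1 holds another at 49. A match occurs in 33.8% of 32851 mouse promoter windows of this length. Foxa1 also holds a forkhead match 141 bases before its start, a feature of 17.8% of windows. Also searched, on both strands, were TATAAA, which occurs in 12.4% of windows, the GATA factor letters written AGATAA, which occur in 10.0%, and the ETS factor letters AGGAAG, in 29.5%. None of these 3 is in the 5 windows shown, and Esr1 holds AGGAAG and a forkhead match. The Foxa1 and Gata3 windows hold 21 and 19 CpG pairs, Elf3 8, Foxa2 6 and Elf5 2, where the median window holds 6. A CpG-rich window stands both before a gene with transcript in NMuMG and before one with almost none there.

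The 11 libraries listed 10327 to 11019 symbols at 1 FPKM or more. FPKM (fragments per kilobase of transcript, scaled to the library's mapped fragments) corrects for transcript length, so levels can be set side by side between genes. Read counts are not in the tables and absolute depth is unknown. Relative depth, read from the upper bounds of entries at 0, lay between 0.933 and 1.06 for the libraries of series 1, between 1.13 and 1.28 for those of series 2 and between 3.80 and 3.81 for those of series 3, where a series is a run of numbers in the table names. Series 1 holds NMuMG replicates 1 and 2 and ES replicates 1 and 2, series 2 holds NMuMG replicates 3 and 4, ES replicate 3 and NIH3T3 replicate 1, and series 3 holds the other NIH3T3 replicates. The 5 epithelial markers (Cdh1, Epcam, Krt8, Krt18, Cldn4) summed to 3501 to 4932 FPKM in NMuMG, against 165 to 213 in ES cells and 0.0278 to 0.642 in NIH3T3. Within NMuMG, Cldn4, a tight junction gene, stayed under 1 FPKM in every replicate and Epcam, an adhesion gene, reached only 2.10 to 7.57 FPKM, against 62.8 to 77.7 FPKM in ES cells. The 6 pluripotency markers summed to 1.21 to 4.76 FPKM in NMuMG and 3918 to 5132 FPKM in ES cells, and the 8 fibroblast markers to 0.200 to 1.64 FPKM in NMuMG and 2688 to 5752 FPKM in NIH3T3. Pou5f1, a pluripotency gene at 1027 FPKM or more in ES cells, was listed at 0.402 to 1.35 FPKM in NMuMG, a range that reaches above every NMuMG value of Gata3 and Esr1.

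**Figure D1:**
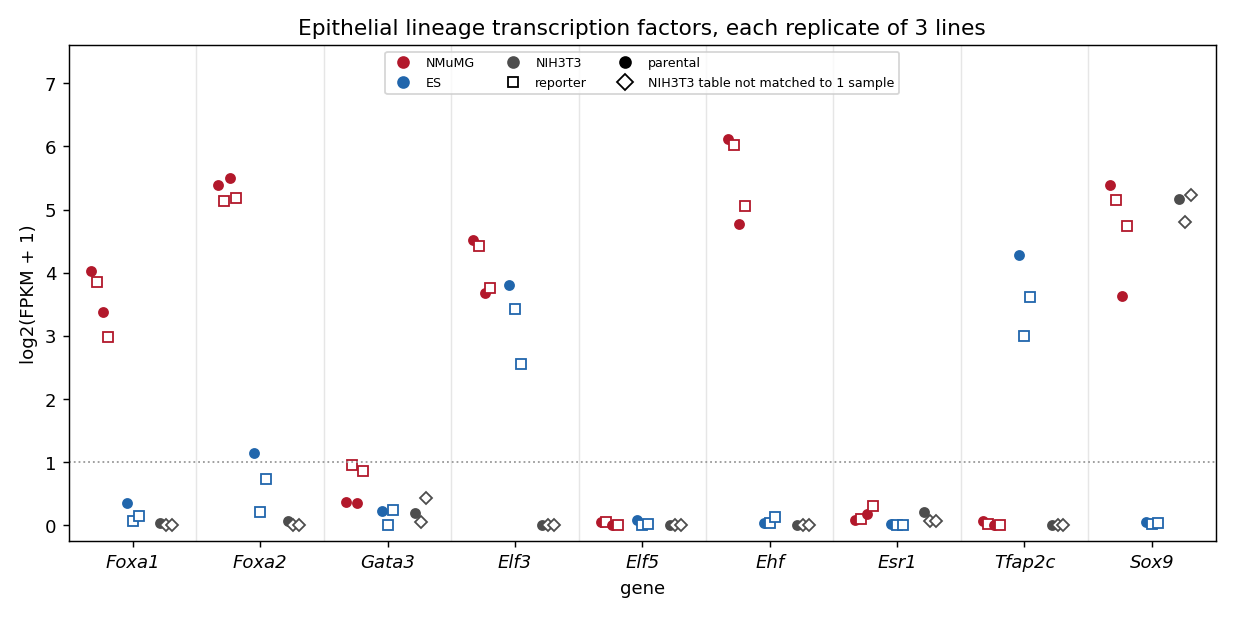
Level of each of the 9 genes as log2(FPKM + 1) in 4 NMuMG, 3 ES and 3 NIH3T3 replicates, 1 point per replicate. Filled circles are parental, open squares reporter cultures and open diamonds NIH3T3 tables not matched to 1 sample, and the dotted line marks 1 FPKM. NMuMG stands high for Foxa1, Foxa2, Elf3, Ehf and Sox9 and below the line for Gata3, Elf5, Esr1 and Tfap2c.

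NMuMG carried both forkhead factors. Foxa1 stood at 15.4, 13.4, 9.37 and 6.89 FPKM in NMuMG replicates 1 to 4, against 0.279, 0.0542 and 0.108 FPKM in ES replicates 1 to 3 and 0.0308, 0 and 0 FPKM in NIH3T3 replicates 1 to 3. Every NMuMG replicate lay above every other library, and within NMuMG replicate 4 was lowest. Foxa1 was higher in NMuMG than in ES cells by 3.37 on the log2(FPKM + 1) scale (SE 0.234, limma adjusted p = 7.93e-07) and higher than in NIH3T3 by 3.55 (SE 0.234, limma adjusted p = 7.53e-07). All differences in log2 units below are on that scale, which understates the change of low genes. Against NIH3T3 the call was lost with a single NIH3T3 replicate, within series 2 (3.13, limma adjusted p = 0.0566) and among parental cultures (3.66, limma adjusted p = 0.0724). In bulk RNA, fewer cells with a transcript and less of it in each cell cannot be told apart.

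Foxa2, the endoderm member, was the more abundant forkhead gene, at 41.0, 34.2, 44.5 and 35.4 FPKM in NMuMG, against 1.22, 0.160 and 0.673 FPKM in ES cells and 0.0478, 0 and 0 FPKM in NIH3T3. The lines did not overlap and the 4 NMuMG values lay within a narrow band, 38.8 ± 4.83 FPKM (SD, n = 4). The mean of Foxa2 stood above 80.6% of the 11005 symbols that averaged at least 1 FPKM in NMuMG, and that of Foxa1 (11.3 ± 3.84 FPKM, SD, n = 4) above 44.5%. Foxa2 was higher in NMuMG than in ES cells by 4.60 (SE 0.214, limma adjusted p = 4.81e-08) and than in NIH3T3 by 5.28 (SE 0.214, limma adjusted p = 2.02e-08). Foxa3, the remaining family member, was listed at 1.89 to 4.95 FPKM in NMuMG, 1.38 to 1.46 FPKM in ES cells and 0 to 0.167 FPKM in NIH3T3. It was called higher in NMuMG than in NIH3T3 (1.87, SE 0.226, limma adjusted p = 8.06e-05) and was not called against ES cells.

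Of the epithelium-specific ETS genes, NMuMG carried Ehf and Elf3 and lacked Elf5. Ehf stood at 68.3, 64.1, 26.3 and 32.2 FPKM in NMuMG, against 0.0271, 0.0302 and 0.0926 FPKM in ES cells, and was listed at 0 in all 3 NIH3T3 replicates. It had the highest NMuMG mean of the 9 genes, 47.8 ± 21.5 FPKM (SD, n = 4), above 84.7% of symbols expressed there, and the 2 replicates of series 1 were the high ones. Ehf was higher in NMuMG than in ES cells by 5.42 (SE 0.308, limma adjusted p = 1.85e-07), a call lost among parental cultures alone (5.40, limma adjusted p = 0.0581), where ES cells have a single replicate. It was also called higher than in NIH3T3 (limma adjusted p = 2.22e-07), with no fold given against values of 0, and that call too was lost among parental cultures (limma adjusted p = 0.100).

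Elf3 was shared with ES cells. It stood at 22.0, 20.4, 11.9 and 12.5 FPKM in NMuMG, against 13.0, 9.77 and 4.91 FPKM in ES cells, and was listed at 0 in all 3 NIH3T3 replicates, including the 2 deepest libraries of the series. NMuMG replicates 3 and 4 lay below ES replicate 1, so these lines overlapped, while NIH3T3 stood apart. The difference from ES cells, 0.83 (SE 0.308, 95% interval 0.14 to 1.51, limma adjusted p = 0.0345), was under 2-fold and was not called. It ranged over 0.48 to 1.10 with single replicates left out and was called without ES replicate 1 (1.10, limma adjusted p = 0.0146). Elf3 was called higher in NMuMG than in NIH3T3 (limma adjusted p = 2.05e-06) and in ES cells than in NIH3T3 (limma adjusted p = 1.32e-05), and both calls were lost among parental cultures (limma adjusted p = 0.0857 and 0.0695).

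Elf5, the alveolar factor, was listed at 0.0423, 0.0376, 0 and 0 FPKM in NMuMG, 0.0592, 0 and 0.0161 FPKM in ES cells and 0 in every NIH3T3 replicate. It did not pass the filter of 1 FPKM in at least 3 replicates and was not tested. Its locus lies 109 kb from that of Ehf. The entry between them, A930006I01Rik, was at 0 in every library but NMuMG replicate 3 (0.0166 FPKM). Cat, the catalase gene on the far side of Elf5, stood at 122, 115, 70.5 and 72.5 FPKM in NMuMG, against 15.7 to 26.1 FPKM in ES cells and 15.8 to 25.1 FPKM in NIH3T3. In NMuMG Elf5 and A930006I01Rik, both near the floor, thus sit between the abundant genes Ehf and Cat, of which Ehf is near 0 in the other lines and Cat is not.

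**Figure D2:**
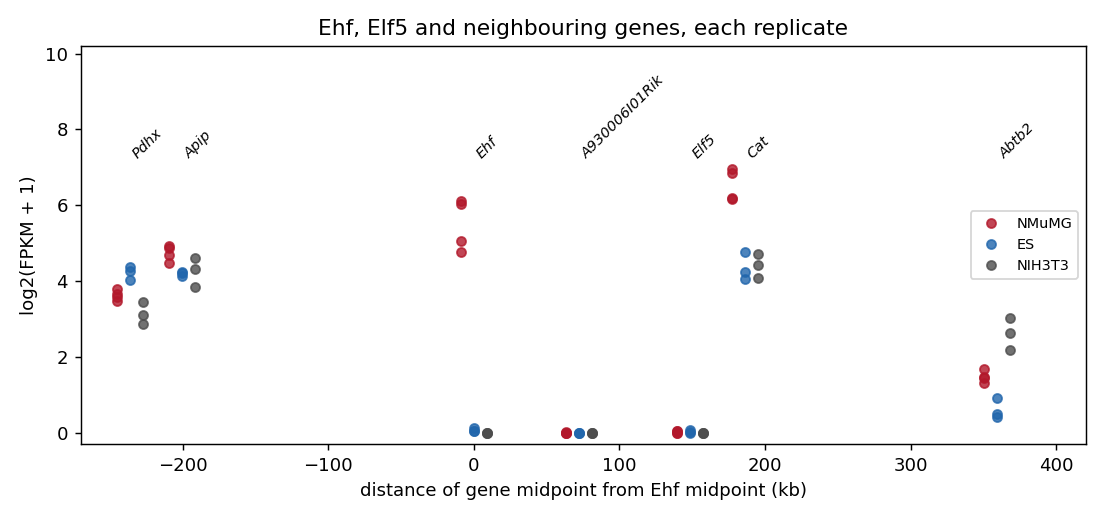
Level of Ehf, Elf5 and the neighbouring entries as log2(FPKM + 1) against the distance of each gene's midpoint from that of Ehf in kb, 1 point per replicate, with the lines offset sideways for legibility. Ehf is at 26.3 to 68.3 FPKM in NMuMG and Elf5 at 0 to 0.0423 FPKM.

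Of 17 paralogues of the 9 genes, 8 were tested, with 4 higher and 0 lower in NMuMG than in ES cells (median 1.14, against 0.093 over all tested genes) and 3 higher and 2 lower than in NIH3T3 (median 0.67, against 0.048). Broader ETS relatives outside the epithelium-specific branch were present in NMuMG. Elf4 stood at 18.1 to 23.0 FPKM in NMuMG and was higher than in ES cells, at 0.449 to 1.07 FPKM (3.67, SE 0.169, limma adjusted p = 4.46e-08), and than in NIH3T3, at 4.32 to 5.62 FPKM (1.89, SE 0.169, limma adjusted p = 8.07e-06). Elf1 (13.2 to 27.3 FPKM in NMuMG) was higher than in ES cells (2.15, SE 0.272, limma adjusted p = 5.85e-05) and not called against NIH3T3. Elf2 stood at 17.5 to 24.9 FPKM in NMuMG, 13.0 to 17.9 FPKM in ES cells and 18.3 to 20.6 FPKM in NIH3T3 and was called in neither comparison. Spdef, another ETS gene of secretory epithelia, was at 0 to 0.0208 FPKM in NMuMG.

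The luminal regulators Gata3 and Esr1, unlike Foxa1, stayed under 1 FPKM in NMuMG. Gata3 was listed at 0.297, 0.936, 0.279 and 0.827 FPKM in NMuMG, against 0.176, 0 and 0.182 FPKM in ES cells and 0.152, 0.0330 and 0.354 FPKM in NIH3T3. The NMuMG values lay above those of ES cells and overlapped those of NIH3T3, and the 2 reporter replicates were the high ones. Gata3 did not pass the filter. With no filter its difference from ES cells was 0.48 (limma adjusted p = 0.0406), under 2-fold, and that from NIH3T3 was 0.41 (limma adjusted p = 0.116). Between NMuMG reporter and parental cultures it was 0.55 without a filter (limma adjusted p = 0.358).

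Esr1 was listed at 0.0592, 0.0702, 0.138 and 0.237 FPKM in NMuMG, 0.0184, 0.00442 and 0 FPKM in ES cells and 0.156, 0.0554 and 0.0532 FPKM in NIH3T3. All 10 replicates were below 1 FPKM and the gene was not tested. With no filter Esr1 differed from ES cells by 0.16 (limma adjusted p = 0.0402), under 2-fold, and from NIH3T3 by 0.048 (limma adjusted p = 0.631). Its paralogue Esr2 was at 0 to 0.0108 FPKM in NMuMG.

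Tfap2c was an ES gene in these libraries. It was listed at 0.0473, 0.0140, 0 and 0 FPKM in NMuMG, against 18.4, 7.03 and 11.3 FPKM in ES cells, and at 0 in all 3 NIH3T3 replicates. NMuMG was lower than ES cells by a log2 difference of -3.61 (SE 0.243, limma adjusted p = 6.16e-07). The fitted difference from NIH3T3 was 0.022 (95% interval -0.52 to 0.56, limma adjusted p = 0.966), with both lines at or near 0. Tfap2c passed the filter through ES cells, whose values also set the width of that interval. The test against NIH3T3 therefore shows nothing beyond the listed levels. The paralogue Tfap2a stood at 1.23 to 4.74 FPKM in NMuMG, 0.195 to 0.698 FPKM in ES cells and 6.31 to 9.61 FPKM in NIH3T3. It was higher in NMuMG than in ES cells (1.41, SE 0.313, limma adjusted p = 0.00243), a call lost within series 1 (1.33, limma adjusted p = 0.0830). Among GATA genes Gata6, an endoderm factor, stood at 21.1 to 30.8 FPKM in NMuMG, against 1.10 to 4.65 FPKM in ES cells and 1.26 to 1.64 FPKM in NIH3T3, and was called higher in both comparisons (2.84, SE 0.292, limma adjusted p = 1.32e-05, and 3.35, SE 0.292, limma adjusted p = 6.59e-06). Gata4 stood at 7.07 to 8.62 FPKM in NMuMG, and Gata2 at 0 to 0.0668 FPKM.

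Sox9 was shared with the fibroblasts rather than with ES cells. It stood at 41.1, 34.7, 11.3 and 25.9 FPKM in NMuMG, against 0.0384, 0.0136 and 0.0246 FPKM in ES cells and 34.8, 26.8 and 36.7 FPKM in NIH3T3. NMuMG replicate 3 was the lowest of its line, and the NMuMG and NIH3T3 values overlapped. NMuMG was higher than ES cells by 4.70 (SE 0.356, limma adjusted p = 1.48e-06), a call lost within series 2 (4.15, limma adjusted p = 0.0726) and among parental cultures (4.46, limma adjusted p = 0.0935). The difference from NIH3T3 was -0.33 (95% interval -1.13 to 0.46, limma adjusted p = 0.493), and 0.034 without NMuMG replicate 3. Its close relatives Sox8 and Sox10 were at 0 to 0.0436 FPKM and at 0 in NMuMG.

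Of the 9 genes, 6 passed the filter on low values and 3 (Gata3, Elf5, Esr1) did not. Against ES cells 4 were called higher in NMuMG (Ehf, Sox9, Foxa2, Foxa1) and 1 lower (Tfap2c), with 45.8% of 12350 tested genes called in that comparison, 26.4% higher and 19.4% lower. Against NIH3T3 4 were called higher (Ehf, Foxa2, Elf3, Foxa1) and 0 lower, with 25% of tested genes called, 14.4% higher and 10.6% lower, and 5994 genes at an unadjusted p under 0.05. Ehf, Foxa1 and Foxa2 passed the filter through NMuMG and Tfap2c through ES cells, so these counts describe the genes and support nothing further. Both comparisons share the NMuMG replicates. Between ES cells and NIH3T3, Elf3 and Tfap2c were called higher in ES cells and Sox9 lower, with 43% of tested genes called, 20.1% higher and 23% lower.

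**Figure D3:**
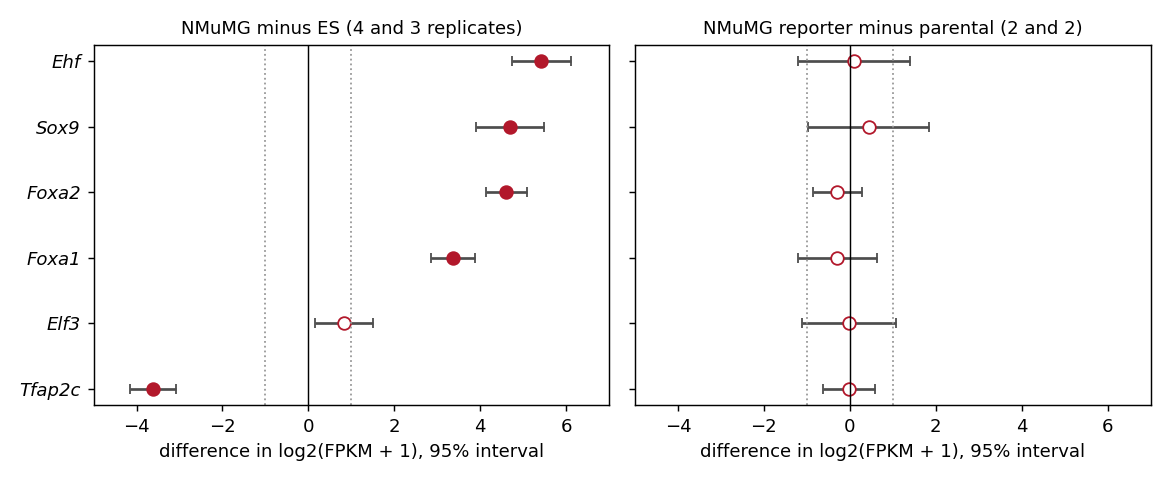
Difference in log2(FPKM + 1) with its 95% interval for the 6 tested genes, for NMuMG minus ES cells (left) and NMuMG reporter minus NMuMG parental cultures (right). Filled points were called (limma adjusted p under 0.05 and at least 2-fold), open points were not, and dotted lines mark 2-fold. The left panel has 4 genes to the right, Elf3 at 0.83 and Tfap2c at -3.61, and all intervals of the right panel include 0.

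The wider set of 13 mammary luminal regulators was partly present in NMuMG. Of 8 tested, 5 were higher than in ES cells and 1 was lower (median 2.11, against 0.093 over all tested genes), and against NIH3T3 1 was higher and 1 lower (median -0.052, against 0.048). Cebpb, a factor needed for alveolar development, stood at 74.8 to 118 FPKM in NMuMG and 4.47 to 6.32 FPKM in ES cells (3.93, SE 0.319, limma adjusted p = 2.47e-06). It was at 91.4 to 277 FPKM in NIH3T3 and was not called against that line. Lmo4, a cofactor of luminal proliferation, stood at 89.1 to 130 FPKM in NMuMG, above both ES cells (3.69, SE 0.314, limma adjusted p = 3.42e-06) and NIH3T3 (1.60, SE 0.314, limma adjusted p = 0.00222), although the second call was lost with library series as a term (0.77, limma adjusted p = 0.0269, under 2-fold). Stat5b, a carrier of prolactin signals, was higher than in ES cells (2.20, SE 0.204, limma adjusted p = 6.25e-06). At 9.41 to 11.4 FPKM in NMuMG and 8.90 to 9.98 FPKM in NIH3T3, it was not called between those lines. Tbx3, a factor of early mammary growth, was at 0.00749 to 0.0590 FPKM in NMuMG and lower than in ES cells (-4.10, SE 0.488, limma adjusted p = 3.75e-05) and NIH3T3 (-2.29, SE 0.488, limma adjusted p = 0.00358). The progesterone receptor gene Pgr was at 0 in every NMuMG replicate and the prolactin receptor gene Prlr at 0 in 3 of them and 0.00331 FPKM in the other.

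The 10 other epithelial transcription factors divided into families. Of 7 tested, 0 were higher and 4 lower in NMuMG than in ES cells (median -1.18), and 3 were higher and 0 lower than in NIH3T3 (median 0.34). The 4 lower genes were the grainyhead-like factors Grhl3 (-3.22, SE 0.177, limma adjusted p = 1.45e-07), Grhl2 (-2.83, SE 0.351, limma adjusted p = 5.01e-05) and Grhl1 (-1.18, SE 0.177, limma adjusted p = 0.000184), which sustain epithelial junction genes, and the zinc finger factor Ovol2 (-1.44, SE 0.162, limma adjusted p = 2.52e-05). Grhl2 was at 0.0141 to 0.0187 FPKM in NMuMG, 3.42 to 14.7 FPKM in ES cells and 0 to 0.00209 FPKM in NIH3T3. Those above NIH3T3 included Klf5 (2.50, SE 0.318, limma adjusted p = 0.000113) and Klf4 (1.39, SE 0.471, limma adjusted p = 0.0378). The Klf4 call was lost on leaving out NMuMG replicate 2, 3 or 4, ES replicate 3 or NIH3T3 replicate 2 or 3 (limma adjusted p up to 0.134). It was also lost with library series as a term (1.14, limma adjusted p = 0.361), with no filter (limma adjusted p = 0.0735), within series 2 (limma adjusted p = 0.222) and among parental cultures (limma adjusted p = 0.194).

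Several endoderm factors stood high in NMuMG beside Foxa2. Of 12, 6 were tested, with 5 higher and 1 lower in NMuMG than in ES cells (median 3.69) and 5 higher and 0 lower than in NIH3T3 (median 3.60). Hnf4a, a hepatocyte and gut nuclear receptor, stood at 68.5, 71.6, 78.2 and 92.4 FPKM in NMuMG, against 0.519, 0.360 and 0.109 FPKM in ES cells and 0.0147, 0 and 0 FPKM in NIH3T3. The lines did not overlap, and the difference was 5.89 from ES cells (SE 0.165, limma adjusted p = 2.11e-09) and 6.28 from NIH3T3 (SE 0.165, limma adjusted p = 1.92e-09). Onecut2 (11.5 to 19.2 FPKM) and Cdx2, an intestinal factor (6.99 to 18.1 FPKM), were also called higher than in both lines. The gene that was lower was Nr5a2, at 0.244 to 0.462 FPKM in NMuMG and 14.7 to 29.9 FPKM in ES cells (-3.96, SE 0.216, limma adjusted p = 1.36e-07), while Sox17 and Pdx1 stayed at 0 to 0.0123 FPKM and 0 to 0.873 FPKM in NMuMG.

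**Figure D4:**
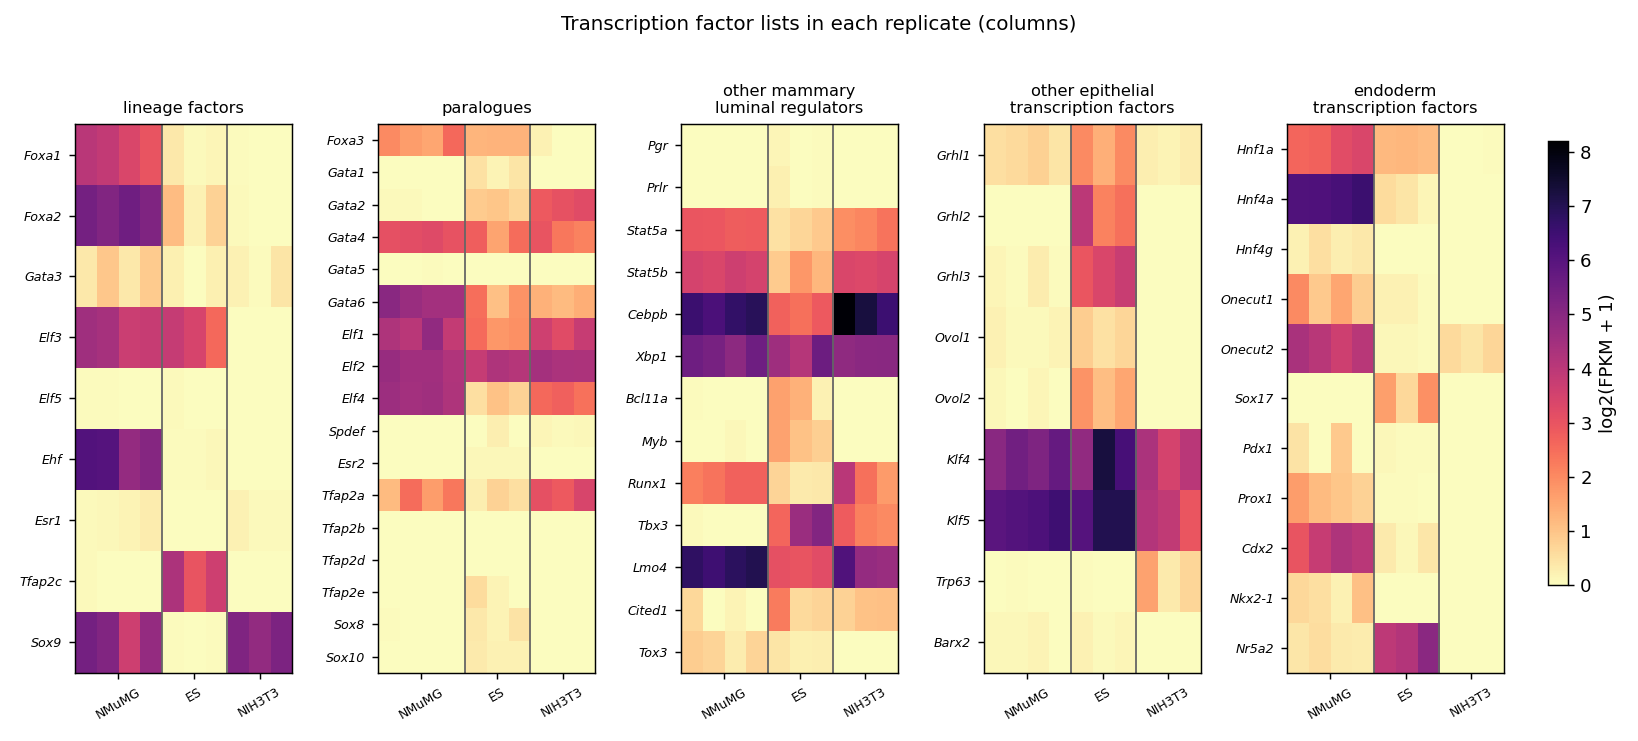
Level of the 9 lineage factors, their paralogues and reported genes of 3 further transcription factor lists as log2(FPKM + 1), with a row per gene and a column per replicate (4 NMuMG, 3 ES, 3 NIH3T3, from left to right in each panel). In NMuMG the dark rows include Ehf, Foxa2, Sox9, Gata6, Hnf4a, Cebpb and Lmo4, and the pale rows include Gata3, Elf5, Esr1, Tfap2c, Pgr, Prlr and Grhl2.

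Products of luminal cells showed a mixed picture beside these factors. Of 24, 13 were tested, with 10 higher and 3 lower in NMuMG than in ES cells (median 4.95) and 10 higher and 0 lower than in NIH3T3 (median 5.06). The luminal keratin gene Krt18 stood at 2017 to 3089 FPKM in NMuMG (8.04 above ES cells, SE 0.297, limma adjusted p = 9.42e-09), with Krt7, Krt8 and the lipopolysaccharide co-receptor gene Cd14 also far above ES cells (7.50 to 7.91). Those lower than in ES cells were Cldn4, Epcam and Kit. The milk protein genes Csn1s1, Csn1s2a, Csn2, Wap and Lalba were at 0 in all 10 replicates. Of 10 basal and myoepithelial genes, 5 were tested, with 2 higher (Mylk 3.00, Snai2 1.25) and 1 lower (Krt17 -3.46) than in ES cells, of which Snai2 fell under 2-fold within series 1 (0.87), and 0 higher and 2 lower than in NIH3T3. The defining basal genes Krt5, Krt14 and Trp63 were at 0 to 0.174 FPKM in NMuMG.

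The reporter was not tied to a detectable change in the 6 tested genes. Gata3, Elf5 and Esr1 did not pass the filter. Gata3 values separated by culture, at 0.936 and 0.827 FPKM in reporter replicates 2 and 4. Parental replicates 1 and 3 stood at 0.297 and 0.279 FPKM (0.55 with no filter, limma adjusted p = 0.358). Of the 6 tested between NMuMG reporter and parental cultures (2 replicates each, in a fit with the ES replicates), 0 were called by limma, and 0 had an unadjusted p under 0.05. Over all genes the background was 0.212%, or 26 of 12276 genes called, 0.0489% higher and 0.163% lower, with 635 at an unadjusted p under 0.05. That count was 62 without NMuMG replicate 1, 0 without NMuMG replicate 2 or 4, and 15 and 16 without ES replicate 2 or 3, so it rests on single libraries. The estimates lay between -0.29 (Foxa1, 95% interval -1.20 to 0.62, and Foxa2, -0.86 to 0.28) and 0.44 (Sox9, -0.97 to 1.85), with all adjusted p at 1. These intervals do not exclude 2-fold changes for Foxa1, Elf3, Ehf or Sox9. The difference between the reporter effect in NMuMG and that in ES cells was not past the threshold for any of the 6 genes (limma adjusted p of 0.641 or more).

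For 4 of these genes the NMuMG replicates differed more between library series than between reporter and parental cultures. Ehf averaged 29.3 FPKM in series 2 and 66.2 FPKM in series 1 (2 replicates each), a log2 difference of -1.15. Sox9 averaged 18.6 FPKM in series 2 and 37.9 FPKM in series 1 (-0.99), Foxa1 8.13 and 14.4 FPKM (-0.75), and Elf3 12.2 and 21.2 FPKM (-0.75). Of 10879 genes, 1.13% had a lower difference than Ehf, 1.68% than Sox9, 2.84% than Foxa1 and 2.89% than Elf3. In series 2 over series 1, 1.63% of 10879 genes were lower by 2-fold or more. Foxa2 averaged 40.0 FPKM in series 2 and 37.6 FPKM in series 1 (0.085), so it did not share the difference. Outside the 9 genes Hnf4a and Cdx2 were higher in series 2 (0.28 and 0.72). In ES cells Elf3 stood at 4.91 FPKM in the replicate of series 2 and averaged 11.4 FPKM in series 1. No test was made of these differences. In NMuMG and ES cells series 1 and series 2 coincide with Bio numbers 1 and 2 of the titles, so series and Bio number cannot be told apart there. What else differed between the series is not given in the sources used here.

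Within a series the line differences held their direction. NMuMG minus ES cells was 4.79 within series 2 and 6.03 within series 1 for Ehf, 4.15 and 5.24 for Sox9, 4.60 and 4.58 for Foxa2, 3.03 and 3.73 for Foxa1, 1.16 and 0.85 for Elf3 and -3.62 and -3.60 for Tfap2c. Against NIH3T3 only series 2 holds both lines, with 5.28 for Foxa2, 3.13 for Foxa1 and -0.97 for Sox9, where NIH3T3 has a single replicate. Among the other genes named above as called against ES cells, the calls of Elf1, Gata6, Tfap2a, Grhl1, Mylk and Snai2 were lost within series 2, among parental cultures or in both (limma adjusted p of 0.0509 to 0.176). Against NIH3T3 this held for Foxa3, Elf4, Gata6, Klf4, Klf5, Lmo4, Onecut2 and Cdx2 (limma adjusted p of 0.0621 to 0.255).

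**Figure D5:**
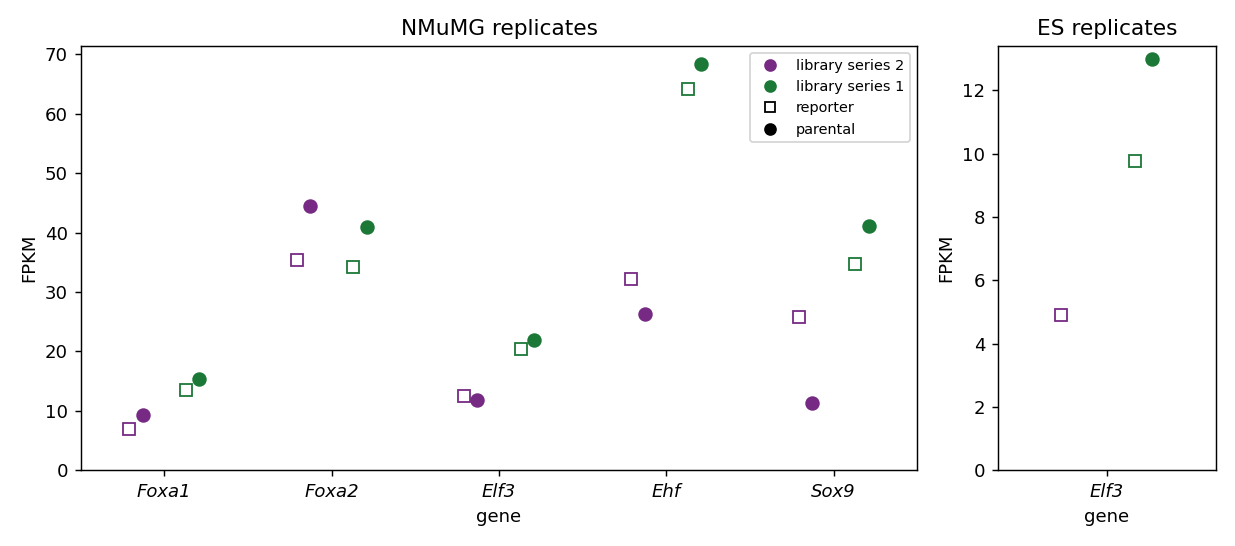
FPKM of 5 genes in the 4 NMuMG replicates (left) and of Elf3 in the 3 ES replicates (right), with library series 2 in purple and series 1 in green, open squares for reporter and filled circles for parental cultures. Ehf, Sox9, Foxa1 and Elf3 are lower in series 2, and Foxa2 is not.

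The tested genes closest in pattern were ranked by Pearson's r of log2(FPKM + 1) over the 10 replicates, as a description, since the points share line and library. Foxa1 lay closest to Apob (r = 0.9987), which encodes a lipoprotein of liver and gut, then Pik3ap1 and Ugt2b34. Foxa2 lay closest to Rnf128 (0.9985), Rin3 and Lyn, and Ehf to Ccdc149 (0.9988), Ugt2b34 and Cys1. Apob stood at 23.7 to 56.8 FPKM in NMuMG and 0.0329 to 0.146 FPKM in ES cells. Elf3 lay closest to Zfp456 (0.9927), Prkcz, which encodes an atypical protein kinase C of cell polarity, and Ddb2. Sox9 lay closest to Samd4 (0.9956), Plxnd1 and Smarcc2, which were likewise present in NMuMG and NIH3T3 and lower in ES cells. Tfap2c lay closest to Aard, Tmem28 and Ina (0.9999 or more), all at 0 to 0.0356 FPKM in NMuMG.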

How the data were processed

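RNA was extracted with RNeasy columns and libraries were made with a NEBNext Ultra kit, per the labels' protocols. The submitters' processing notes name bcl2fastq 1.8.4, TopHat, Cufflinks and the mm10 build, with no versions given for the aligner and the quantifier. The deposited tables, 1 per library, hold FPKM, computed by the authors, for 23849 entries, and entries sharing a symbol were summed into 23355 symbols. Fn1, Rn45s and Tpm3 had failed in a library and were left out. Groups followed the labels, and the 2 technical runs of 1 ES culture were averaged.

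Values of log2(FPKM + 1) were fitted with limma 3.58.1 under R 4.3.3, with a variance trend over intensity, two-sided tests and Benjamini-Hochberg adjustment over all tested genes. The line fit took 10 replicates and the 12350 genes that reached 1 FPKM in 3 or more of them. The reporter fit took 7 replicates and the 12276 genes that reached 1 FPKM in 2 or more. A gene was called at an adjusted p under 0.05 and at least 2-fold. On simulated data for NMuMG minus ES, 99 of 100 genes changed by 3 and 83 of 100 changed by 1.5 on the log2 scale were called, with 5 false calls among 12150. The simulated noise was independent between samples, with no series shift and few changed genes. These rates therefore need not hold in the real data. Depth is unknown, so precision is given by the spread between replicates.

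The members and lists were chosen with earlier results of these data known. Named are all 9 members, at most 4 called genes with the largest change per list and comparison (other genes named for their level alone were chosen after their values were seen), and the 3 genes nearest each tested member. A pair of listed genes is not reported here. Pou5f1 and Cat were likewise chosen after their values were seen. Alternatives were other pseudocount, no filter, quantile normalization, no trend, a library series term, single series, parental cultures only, 1 technical run, a replicate block, NMuMG alone and leaving out each replicate. Python 3.11.15 with pandas 2.3.3, NumPy 2.4.6 and matplotlib 3.10.9 served for tables and figures.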

Additional observations from a re-analysis of the deposited data

How the results depend on the processing

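Depth is unknown and groups hold 1 to 4 replicates, so small differences were not detectable. The deposited interval bounds of single values served for relative depth only, so values under 1 FPKM are given here without them. Fits within series 2 or among parental cultures leave ES cells or NIH3T3 with 1 replicate, whose spread is assumed to be that of the other lines. Within series 2 the count of called genes was 2078 for NMuMG minus ES, 885 for NMuMG minus NIH3T3 and 1696 for ES minus NIH3T3, and among parental cultures 2412, 941 and 2030, against 5651, 3085 and 5315. Among parental cultures 2 of the 9 genes were called higher in NMuMG than in ES cells, 1 higher in NMuMG than in NIH3T3, and 1 higher and 0 lower in ES cells than in NIH3T3, and within series 2 the last comparison had 0 lower. With a pseudocount of 0.1, 4 of the 9 were called higher in ES cells than in NIH3T3, Foxa1 and Foxa2 being added. Quantile normalization moved the median of NMuMG minus ES to -0.042, against 0.093, and the split to 2825 higher and 2805 lower, against 3259 and 2392.

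Directions turned in estimates that were not called as reported. In ES minus NIH3T3, Foxa1 was -0.17 and Ehf -0.37 with library series as a term, while Foxa1 was called with a pseudocount of 0.1 (1.07, limma adjusted p = 0.0387). In NMuMG minus NIH3T3, Sox9 ranged over -0.56 to 0.034 with single replicates left out. In the NMuMG reporter comparison Elf3 was 0.047 under quantile normalization, and with single replicates left out Foxa1 ranged over -0.72 to 0.15, Elf3 -0.44 to 0.40, Tfap2c -0.057 to 0.010, Ehf -0.58 to 0.77 and Sox9 -0.44 to 1.33. The reporter count of called genes was 26, and 59 with a pseudocount of 0.1, 14 with no filter, 11 under quantile normalization and 0 to 62 with single replicates left out. With the Bio numbers of the titles as a replicate block it was 8, and the block left the NMuMG minus ES count at 5630 with no call of the 9 genes changed. Within NMuMG only 2 pairs share a number, the labels do not call it a batch, and the deviations of same-numbered NMuMG replicates correlated at 0.274 over 12276 genes. The block also takes in the ES replicates, and in both lines it is the same split as the library series. Over the same genes, series 1 minus series 2 in NMuMG correlated at 0.439 with that in ES cells. The cause of these shifts was not tested.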

Other observations

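Known target genes of these factors were mixed in direction. Of 15 oestrogen receptor and FOXA1 target genes, 9 were tested, with 3 higher and 0 lower in NMuMG than in ES cells (median 0.83) and 3 higher and 1 lower than in NIH3T3 (median 0.68). Over all tested genes 26.4% were higher and 19.4% lower than in ES cells, and 14.4% higher and 10.6% lower than in NIH3T3. Areg, which encodes the growth factor amphiregulin, stood at 22.2, 47.3, 99.3 and 126 FPKM in NMuMG, a line with Esr1 under 1 FPKM. It was at 0 to 0.0179 FPKM in ES cells and 0.0928 to 0.924 FPKM in NIH3T3. The difference from ES cells was 5.93 (SE 0.504, limma adjusted p = 3.42e-06), a call lost among parental cultures (5.59), where ES cells have a single replicate. Within NMuMG, Areg averaged 113 FPKM in series 2 and 34.7 FPKM in series 1 (1.67). Greb1, a target that depends closely on the receptor in human breast cells, was at 0 to 0.0142 FPKM in NMuMG. Of 13 cartilage genes that SOX9 activates, 2 were tested (Col9a2, lower in NMuMG than in ES cells by a log2 difference of -1.61, and Sox5, -1.45 against NIH3T3), and Col2a1, Acan and Col9a1 were at 0 to 0.187 FPKM in NMuMG and at 0 to 0.0168 FPKM in NIH3T3, the lines with abundant Sox9. Not all of the 13 were this low in NIH3T3, where Col11a1 stood at 0.551 to 5.36 FPKM, Sox5 at 1.25 to 2.25 FPKM and Col11a2 at 0.520 to 0.789 FPKM.

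Igfbp4, which encodes a binding protein of insulin-like growth factors and is among the receptor target genes, was the only listed gene called in the NMuMG reporter comparison. It stood at 0.0388 and 0.144 FPKM in reporter replicates 2 and 4, against 3.82 and 4.86 FPKM in parental replicates 1 and 3, and at 2.51 to 3.28 FPKM in ES cells. The difference was -2.29 (SE 0.196, limma adjusted p = 0.0313). The call was lost with no filter, under quantile normalization, with the replicate block, with NMuMG alone and without NMuMG replicate 2, 3 or 4 or ES replicate 2 or 3 (limma adjusted p 0.0678 to 0.362). Its reporter effect in NMuMG minus that in ES cells was -2.12 (limma adjusted p = 0.140).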
